A study of Caenorhabditis elegans with 2 samples.

Results

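The nuclear hormone receptor genes of Caenorhabditis elegans were taken as the protein-coding genes of the Ensembl WBcel235 annotation whose symbol is nhr followed by a number. There were 269 of them among 19973 protein-coding genes, and 167 of the 269 lay on chromosome V. CEH-82 is a homeodomain protein encoded by F45C12.2, and where it sits at the receptor genes was read from chromatin immunoprecipitation and sequencing (ChIP-seq) of sonicated chromatin from whole L1 larvae, the first larval stage. All animals were of strain OP212, genotype unc-119(ed3) III; ddEx58, in which F45C12.2 carries GFP-FLAG at its C-terminus, and both sexes were pooled. The 2 biological replicates formed 1 group, so no condition was compared, and ChIP of an untagged strain was not analysed here. The antibody is labelled ceh-82 although the tag is GFP-FLAG, and the strain is called an insertion although ddEx58 is a name of the array type, so neither the antibody's target nor the tagged copy is clear. Because whole animals were used, a peak cannot be assigned to a cell type. The value of a peak, called signal, is the authors' own on a scale the labels do not define, and the number of reads behind it is unknown.

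Nuclear hormone receptors are transcription factors that bind DNA through a zinc finger domain and, in many cases, a small lipophilic ligand through a second domain. Nematodes carry a far larger family than insects or mammals, most of it derived from ancestors related to the vertebrate receptor HNF4. A small conserved set has insect and mammalian counterparts, several with roles in moulting, neurons and metabolism, and many of the expanded receptors lie in clusters. Receptors with known roles in C. elegans include NHR-49, a regulator of fatty acid desaturation, fat breakdown and the fasting response.

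The sequences below, read from the RefSeq genome of WBcel235 (the assembly called ce11 in the peak lists), show what lies at the peaks the results turn on. They are given 5′ to 3′ on the strand of the gene, and capitals mark the letters GAGAGA, or TCTCTC as its reverse complement, and CACGTG. For 5 bound genes the stretch surrounds the summit of the peak: nhr-1 (chrX:17513678-17513798, plus strand), nhr-78 (chrIV:4277876-4277969, minus strand), nhr-32 (chrX:13251603-13251723, plus strand), nhr-14 (chrX:8476369-8476489, minus strand) and nhr-256 (chrV:1743646-1743766, plus strand). For nhr-47 (chrV:5505208-5505252, plus strand), whose summit lay just inside the gene, the bases before the start are shown, and the stretch of nhr-78 also ends at the start.
nhr-47: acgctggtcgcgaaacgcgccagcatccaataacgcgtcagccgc
nhr-1: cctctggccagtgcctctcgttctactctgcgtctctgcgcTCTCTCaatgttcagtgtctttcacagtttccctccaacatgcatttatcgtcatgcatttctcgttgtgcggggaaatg
nhr-78: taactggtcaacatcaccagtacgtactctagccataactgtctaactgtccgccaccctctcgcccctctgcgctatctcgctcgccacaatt
nhr-32: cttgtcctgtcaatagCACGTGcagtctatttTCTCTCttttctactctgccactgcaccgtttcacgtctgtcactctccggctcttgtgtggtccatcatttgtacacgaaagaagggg
nhr-14: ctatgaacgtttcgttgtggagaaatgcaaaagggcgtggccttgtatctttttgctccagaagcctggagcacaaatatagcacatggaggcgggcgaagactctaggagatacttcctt
nhr-256: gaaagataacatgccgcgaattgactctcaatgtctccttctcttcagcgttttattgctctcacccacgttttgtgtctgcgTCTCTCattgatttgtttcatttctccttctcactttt
Among them nhr-1 and nhr-256 hold TCTCTC once each, nhr-32 holds both TCTCTC and CACGTG, and nhr-47, nhr-78 and nhr-14 hold neither in the bases shown. A second set shows unbound genes for contrast. The 120 bases before the starts of nhr-58 (chrV:532139-532258, plus strand), the unbound gene closest to the signal of the bound ones, and nhr-228 (chrV:2281639-2281758, plus strand), a gene of the chromosome V expansion with a weak peak, each hold TCTCTC.
nhr-58: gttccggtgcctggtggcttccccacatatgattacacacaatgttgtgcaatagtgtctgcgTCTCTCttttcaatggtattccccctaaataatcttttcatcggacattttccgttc
nhr-228: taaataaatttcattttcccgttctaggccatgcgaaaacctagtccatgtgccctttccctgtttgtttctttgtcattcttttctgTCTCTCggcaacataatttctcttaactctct
The 121 bases at the summits of nhr-88 (chrII:2974027-2974147, plus strand) and nhr-48 (chrX:15707579-15707699, plus strand) belong to strong peaks that lay upstream of the gene but too far off to count as bound.
nhr-88: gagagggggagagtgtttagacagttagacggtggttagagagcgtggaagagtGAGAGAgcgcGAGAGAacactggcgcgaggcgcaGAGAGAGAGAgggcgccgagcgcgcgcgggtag
nhr-48: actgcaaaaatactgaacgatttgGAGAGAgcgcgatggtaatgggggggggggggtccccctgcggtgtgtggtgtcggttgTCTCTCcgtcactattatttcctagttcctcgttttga

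Few receptor genes had a strong CEH-82 peak at the start. A gene was called bound when the summit of a peak in the authors' optimal list lay within 500 bp of its annotated start, on either side. By this rule 9 of 269 nhr genes (3.35%) were bound, against 8.18% of all protein-coding genes. The optimal list held 2346 peaks, and it was exactly the 2346 peaks of the pooled relaxed list with a signal of 30.91 or more, so that bound means a pooled signal of at least 30.91 at the start. In the pooled relaxed list, which held 20459 peaks down to a signal of 10.99, 80 nhr genes (29.7%) had a summit within 500 bp, against 27.4% of all protein-coding genes. The share of receptors with any peak was thus near the background, and the share with a strong one was below it. These shares, and all that follow, are descriptions without a test.

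The same gap was present in each replicate alone. Each replicate had its own relaxed list of 30000 peaks, of which the 2346 strongest were taken. These lay at the starts of 10 nhr genes (3.72%) in replicate 1, against 8.06% of all genes, and of 9 nhr genes (3.35%) in replicate 2, against 7.86% of all genes. The nhr share differed less between the replicates than from the share of all genes, but 2 replicate totals give no error for it. Starts with such a peak in both replicates numbered 5 among the nhr genes (1.86%), against 6.56% of all genes. With the relaxed lists, 54 nhr genes (20.1%) had a peak in both replicates, against 20.1% of all genes.

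The 3 strongest peaks at receptor starts were at nhr-47, nhr-49 and nhr-1. The peak at nhr-47 (WBGene00003637, V, 5505253 to 5509956, plus strand) had a signal of 149.7 and rank 192 in the optimal list, with its summit 15 bp inside the gene, in an untranslated exon part. In the replicates, the overlapping peak had a signal of 69.16 and rank 185 in replicate 1 and a signal of 83.32 and rank 183 in replicate 2. This peak also lay 411 bp upstream of the start of dnj-19, a gene of the DnaJ co-chaperone family that runs the other way, the starts being 396 bp apart. nhr-47 was the only one of the 9 whose peak lay within 500 bp of another protein-coding start, and the non-coding RNA gene C24G6.10 lay within 100 bp of its summit.

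At nhr-49 (WBGene00003639, I, 9869651 to 9874680, plus strand), the fat metabolism regulator, the summit lay 351 bp upstream of the start with a signal of 121.4 and rank 319. The overlapping peak had a signal of 50.37 and rank 396 in replicate 1 and a signal of 71.84 and rank 276 in replicate 2. At nhr-1 (WBGene00003600, X, 17514063 to 17528197, plus strand) the summit lay 325 bp upstream with a signal of 76.87 and rank 733. Its signal was 28.94 with rank 977 in replicate 1 and 53.38 with rank 499 in replicate 2. RefSeq places the start of nhr-1 5672 bp away from the Ensembl start, and with the RefSeq start nhr-1 is not bound. All 3 genes kept their place among the strongest 2346 peaks in both replicates.

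The other 6 bound genes lay close to the lower end of the optimal list, with signals of 31.5 to 38.14 and ranks of 1873 to 2297. At nhr-78 (WBGene00003668, IV, 4274341 to 4277875, minus strand) the summit lay 34 bp upstream with a signal of 38.14. Its signal was 15.31 with rank 2265 in replicate 1 and 21.17 with rank 1872 in replicate 2. At nhr-64 (WBGene00003654, I, 3101851 to 3109621, plus strand), listed among the fat and nutrient receptors, it lay 40 bp inside the gene with a signal of 35.48. Its signal was 15.71 with rank 2189 in replicate 1 and 18.91 with rank 2161 in replicate 2. Both of these also stood among the 2346 strongest peaks of each replicate.

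The remaining 4 did so in 1 replicate only. The peak at nhr-56 (WBGene00003646, V, 2219004 to 2221305, plus strand), 54 bp inside the gene with a signal of 35.36, had 7.944 and rank 9640 in replicate 1 and 25.63 and rank 1506 in replicate 2. The peak at nhr-32 (WBGene00003626, X, 13251964 to 13256284, plus strand), 301 bp upstream with a signal of 33.21, had 7.61 and rank 10935 in replicate 1 and 27.65 and rank 1361 in replicate 2. The peak at nhr-14 (WBGene00003613, X, 8473722 to 8476178, minus strand), a gene linked to intestinal iron uptake, lay 251 bp upstream with a signal of 32.52. It had 9.959 and rank 5223 in replicate 1 and 22.32 and rank 1769 in replicate 2, and the non-coding RNA gene T01B10.13 lay within 100 bp of its summit. These 3 were carried by replicate 2. The peak at nhr-256 (WBGene00022805, V, 1743771 to 1747981, plus strand), 65 bp upstream with a signal of 31.5, had 15.59 and rank 2215 in replicate 1 and 14.67 and rank 3074 in replicate 2, so that it fell outside the strongest peaks of replicate 2.

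**Figure D1:**
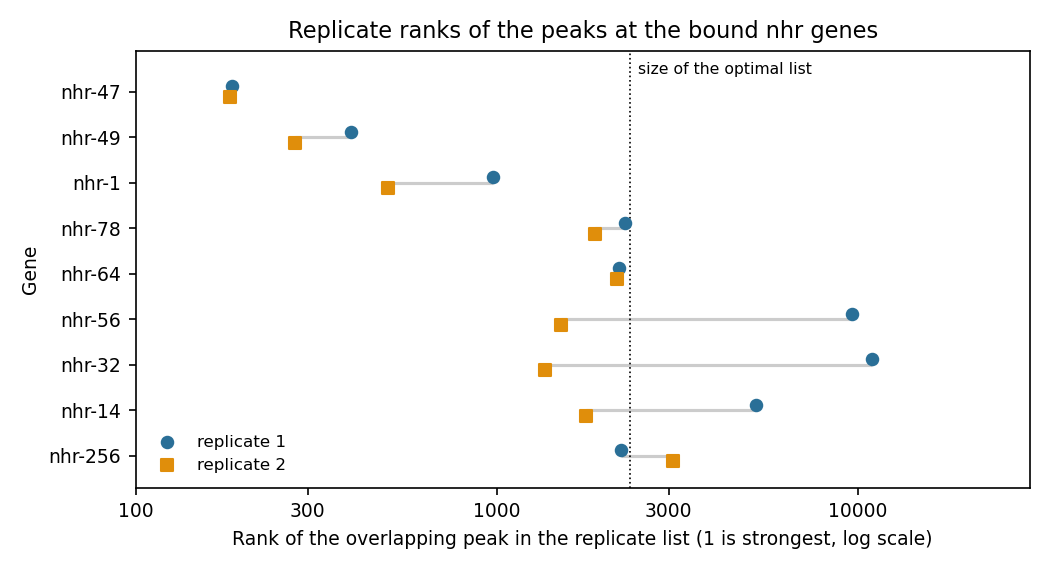
Rank of the peak at each bound nhr gene in the relaxed lists of replicate 1 (circles) and replicate 2 (squares), on a log scale where rank 1 is the strongest peak. The dotted line marks rank 2346, and nhr-56, nhr-32 and nhr-14 lie beyond it in replicate 1, nhr-256 in replicate 2.

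The set of bound receptors depended on the replicate. With the 2346 strongest peaks of replicate 2 alone, 9 nhr genes were bound, 8 of them shared with the pooled set, with nhr-57 in place of nhr-256. With those of replicate 1 alone, 10 were bound, and 6 were shared with the pooled set. That set lacked nhr-14, nhr-32 and nhr-56 and held nhr-25, nhr-50, nhr-58 and nhr-105. Of these, nhr-50 had a signal of 17.12 and rank 1964 in replicate 1 and a signal of 5.714 and rank 28846 in replicate 2, the widest difference among the 4. nhr-47, nhr-49, nhr-1, nhr-78 and nhr-64 were bound in all 3 sets.

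Most bound receptors had no second protein-coding start near their peak. For 9 of 9 bound nhr genes the nearest protein-coding start to the summit was their own, against 1238 of 1633 bound protein-coding genes (75.8%). A second protein-coding start lay within 500 bp of the summit at 1 of 9 (11.1%), against 783 of 1633 (47.9%). Wide spacing was not particular to the bound receptors. Another start lay within 1000 bp of the gene start at 11.1% of bound nhr genes, 7.93% of unbound ones on V and 8.33% elsewhere. The shares were 57.1% for all bound genes and 23.5% for all genes. The median distance from the start to the next protein-coding start was 5047 bp for bound nhr genes, 2348 bp for unbound nhr genes on V, 3838 bp for unbound nhr genes elsewhere, 745 bp for all bound genes and 2134 bp for all genes. Bound nhr genes were also longer, with a median length of 4321 bp, against 2123 bp for unbound nhr genes on V, 2907 bp for unbound nhr genes elsewhere, 2413 bp for all bound genes and 2027 bp for all genes. Several transcript starts were annotated for 6 of 9 bound nhr genes (66.7%), against 36.6% of the unbound ones on V, 37.5% of the unbound ones elsewhere, 38.2% of all bound genes and 27.4% of all genes.

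The chromosome V expansion held most of the family and few of the strong peaks. On V, 3 of 167 nhr genes were bound (1.8%), namely nhr-47, nhr-56 and nhr-256, against 5.49% of all protein-coding genes of that chromosome. On the other chromosomes 6 of 102 were bound (5.88%), against 9.07% of all genes there. The difference between V and the rest was absent at a distance of 250 bp. There 3 nhr genes on V (1.8%, against 3.84% of its genes) and 2 elsewhere (1.96%) were bound, against 5.33% of all genes on any chromosome. It was present at 1000 bp, with 2.4% on V and 8.82% elsewhere. At 500 bp chromosome X lay above its background, with 3 bound of 23 nhr genes, a share above the 5.71% of its genes. This contrast on X depended on the setting. The 3 genes, nhr-1, nhr-14 and nhr-32, were not bound at a distance of 250 bp. Counting starts with one of the strongest peaks in both replicates, X had 1 of 23 (4.35%), against 4.1% of its genes. In the optimal list the counts were 2 of 23 on chromosome I (8.7%), against 11.7% of its genes, and 1 of 33 on IV (3.03%), against 8.14%. On II 0 of 15 were bound, against 7.86% of its genes, and on III 0 of 8, against 12.4%. By position, 2 of 72 nhr genes in the middle of a chromosome, its length cut into 3 equal parts, were bound (2.78%), against 8.47% of all genes there, and 7 of 197 in the outer parts (3.55%), against 8.0% of all genes there.

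**Figure D2:**
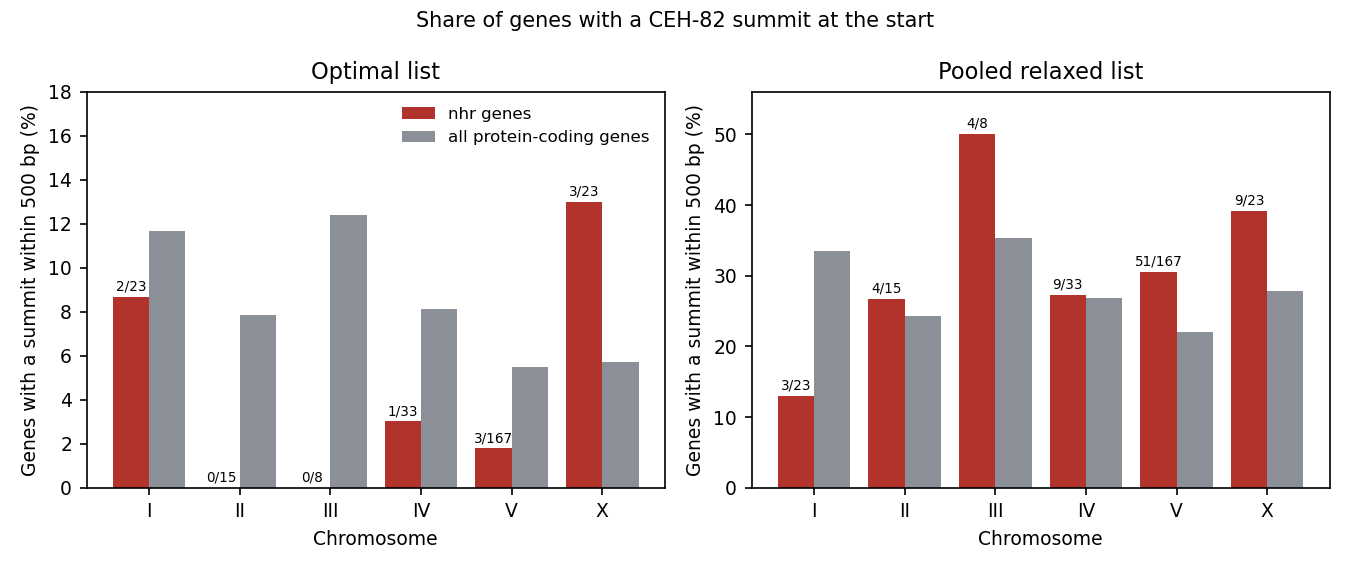
Share of nhr genes (left bar of each pair) and of all protein-coding genes (right bar) with a summit within 500 bp of the start, by chromosome, in the optimal list (left panel) and the pooled relaxed list (right panel); labels give the nhr genes counted. On V the nhr genes lie below all genes in the optimal list (1.8% against 5.49%) and above them in the relaxed list (30.5% against 22.0%).

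Weak peaks were not scarce in the expansion. On V, 51 of 167 nhr genes (30.5%) had a relaxed summit at the start, against 22.0% of all genes of that chromosome, and elsewhere 29 of 102 (28.4%), against 29.2%. Among genes that were not bound, a relaxed summit was present at 71 of 260 nhr genes (27.3%), against 21.0% of all unbound genes. This was 48 of 164 (29.3%) on V, against 17.5%, and 23 of 96 (24.0%) elsewhere, against 22.2%. The higher share on V was also present in each replicate's relaxed list, with 60 nhr genes (35.9%) against 29.3% of the genes of V in replicate 1 and 56 nhr genes (33.5%) against 29.5% in replicate 2. On V, 32 nhr genes (19.2%) had a relaxed peak in both replicates, against 14.9% of the genes of that chromosome. With upstream summits only, the pooled relaxed gap on V was small, 27 of 167 nhr genes (16.2%) against 751 of 4994 genes. It was also small in the stronger part of that list, cut at its median signal, 13.8% against 12.8%. Other alternatives computed for V kept a wider gap, such as 29.9% against 19.8% with each summit given to its nearest start only. Of the genes with a relaxed peak at the start, 9 of 80 nhr genes reached the optimal list (11.2%), against 1633 of 5476 protein-coding genes (29.8%). On V this was 3 of 51 (5.88%), against 274 of 1099 (24.9%), and elsewhere 6 of 29 (20.7%), against 1359 of 4377 (31.0%).

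Among unbound genes, the weak peaks on V had much the same signal at receptors as at other genes, and more of them lay in untranslated exon parts. The median signal of the strongest relaxed peak at the start was 13.49 for the 48 unbound nhr genes on V, against 13.67 for the 825 unbound genes of V with such a peak. Elsewhere it was 17.37 for 23 unbound nhr genes, against 14.62 for 3018 unbound genes. Unbound genes are limited by rule to signals between 10.99 and 30.91, which narrows how far such medians can differ. With bound genes included, the median on V was 13.8 for 51 nhr genes, against 15.54 for 1099 genes. Of the 48 summits on V, 14 (29.2%) lay in untranslated exon parts, against 10.5% for all unbound genes of V, and 17 (35.4%) lay outside protein-coding genes, against 50.9%. Over all chromosomes 39 of 71 (54.9%) lay upstream of the start, against 2384 of 3843 for all unbound genes. The 80 nhr genes had 79 distinct peaks, since nhr-148 and nhr-263 share one between them.

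**Figure D3:**
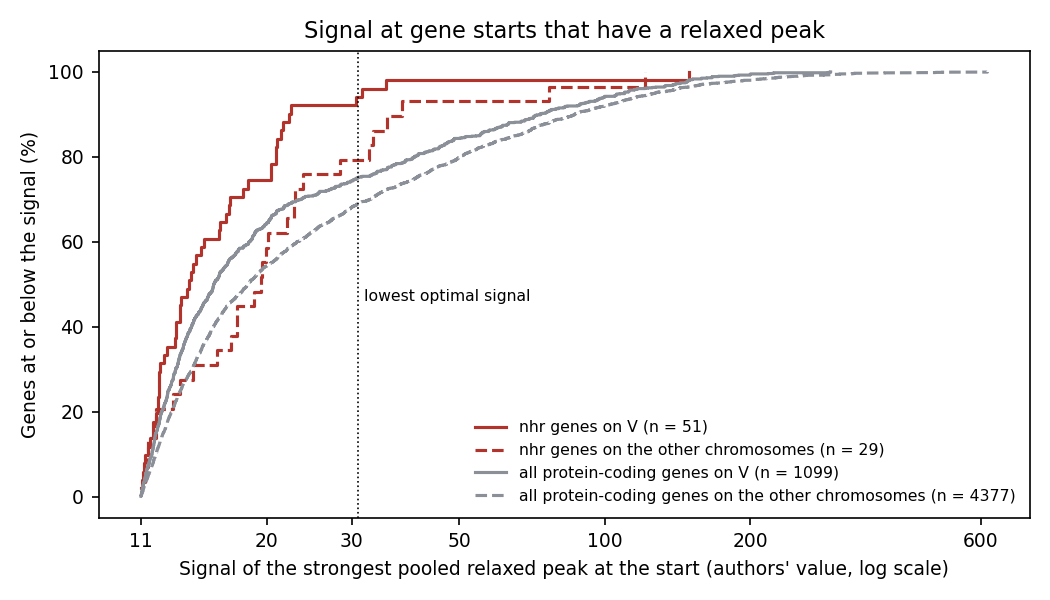
Cumulative share of genes, in percent, by the signal of the strongest pooled relaxed peak within 500 bp of the start (log scale), for nhr genes and all protein-coding genes, on V (solid) and on the other chromosomes (dashed); only genes with such a peak are drawn. The nhr genes on V lie highest over most of the range, and 3 of 51 pass the lowest optimal signal of 30.91 (dotted line).

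Receptors that lie beside each other were rarely bound. Of 150 nhr genes with another nhr start within 10 kb, 1 was bound (0.667%), nhr-56, against 8 of 119 with none (6.72%) and 8.18% of all protein-coding genes. On V the counts were 1 of 121 with such a neighbour (0.826%) and 2 of 46 without (4.35%), against 5.49% of all genes of V. On the other chromosomes they were 0 of 29 with such a neighbour and 6 of 73 without (8.22%), against 9.07% of all genes there. In this setting the receptors without a near neighbour were thus closer to the background. Counting starts with one of the strongest peaks in both replicates, they had 5 of 119 (4.2%), against 6.56% of all genes. On V this was 1 of 46 (2.17%), against 4.41% of the genes of V, and receptors with a near neighbour had 0 of 150. At a distance of 250 bp nhr-1, nhr-14, nhr-32 and nhr-49, all without such a neighbour, were not bound. Relaxed peaks ran the other way on V, with 42 of 121 clustered genes (34.7%) and 9 of 46 others (19.6%), against 22.0% of all genes of V, but not elsewhere, with 1 of 29 clustered genes (3.45%) and 28 of 73 others (38.4%), against 29.2% of all genes there. The median distance to the next nhr start was 3200 bp on V and 34456 bp elsewhere. Optimal peaks were sparse around the V receptors, whose median distance to the nearest optimal summit was 50751 bp, against 26138 bp for all genes of V; elsewhere it was 17252 bp, against 13838 bp.

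The unbound genes nearest to the limit of 30.91 were described by their relaxed peaks. nhr-58 on V came closest, with a signal of 30.58 at a summit 48 bp upstream, 18.72 in replicate 1 and 12.11 in replicate 2; the weakest bound gene, nhr-256, had 31.5. It was followed by nhr-105 on IV with 28.42, nhr-104 on IV with 23.74 and nhr-87 on IV with 22.91. nhr-80, a regulator of fatty acid desaturation, had 22.73 at a summit 447 bp inside the gene. The next were nhr-228 on V with 22.51, nhr-226 on V with 22.22, nhr-119 on II with 22.0, nhr-238 on V with 21.66, and nhr-57 on V, a gene induced under low oxygen, with 21.39. Of these 10 genes 5 were on V.

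Several receptors had a strong optimal peak farther from the start. Within 3000 bp of the start 25 of 269 nhr genes (9.29%) had an optimal summit, against 17.5% of all genes, and within 10000 bp 54 (20.1%), against 37.2%. An optimal summit lay within the gene body at 8 nhr genes (2.97%), against 2.69% of all genes. These included the bound nhr-47, nhr-56 and nhr-64, whose summits lay at the start. Among the nearest optimal peaks within 3000 bp of an unbound start, the strongest was 2552 bp upstream of nhr-88 on II. It had a signal of 200.4 and rank 98, and it ranked 232 in replicate 1 and 57 in replicate 2. It was thus stronger than the peak of any bound receptor. The nearest optimal peak lay in an intron 1925 bp into nhr-19 with 140.3, 2651 bp into nhr-17 with 93.22 and 3661 bp into nhr-46 with 92.5. The gene nhr-46 held 2 optimal summits, of which only the one nearer to the start is given. An optimal summit also lay inside nhr-3 and inside nhr-40, in each farther from the start than the nearest optimal summit, which was upstream. The summit in nhr-17 had a tRNA gene within 100 bp, and its nearest protein-coding start was that of nlp-76.

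Just outside the 500 bp limit, 3 further receptors had strong peaks. The summit 534 bp upstream of nhr-142 on V, signal 138.1, lay only 143 bp upstream of F44E7.9, which runs the other way. The summit 579 bp upstream of nhr-255 on X, signal 105.5, had a tRNA gene within 100 bp. The summit 574 bp upstream of nhr-48 on X, signal 102.8, had nhr-48 as its nearest start; nhr-48 is related to daf-12. Farther upstream were summits at nhr-3 (954 bp, signal 63.72), nhr-280 (1107 bp, 31.44), nhr-84 (1443 bp, 42.47), nhr-70 (1902 bp, 32.44), nhr-105 (2071 bp, 47.86), nhr-34 (2083 bp, 53.16), nhr-40 (2187 bp, 38.67) and nhr-45 (2252 bp, 46.45). For nhr-280 the nearest start was that of pals-22, and for the others it was their own. A summit 2430 bp downstream of the start of nhr-102, signal 81.71, had a snoRNA gene within 100 bp.

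**Figure D4:**
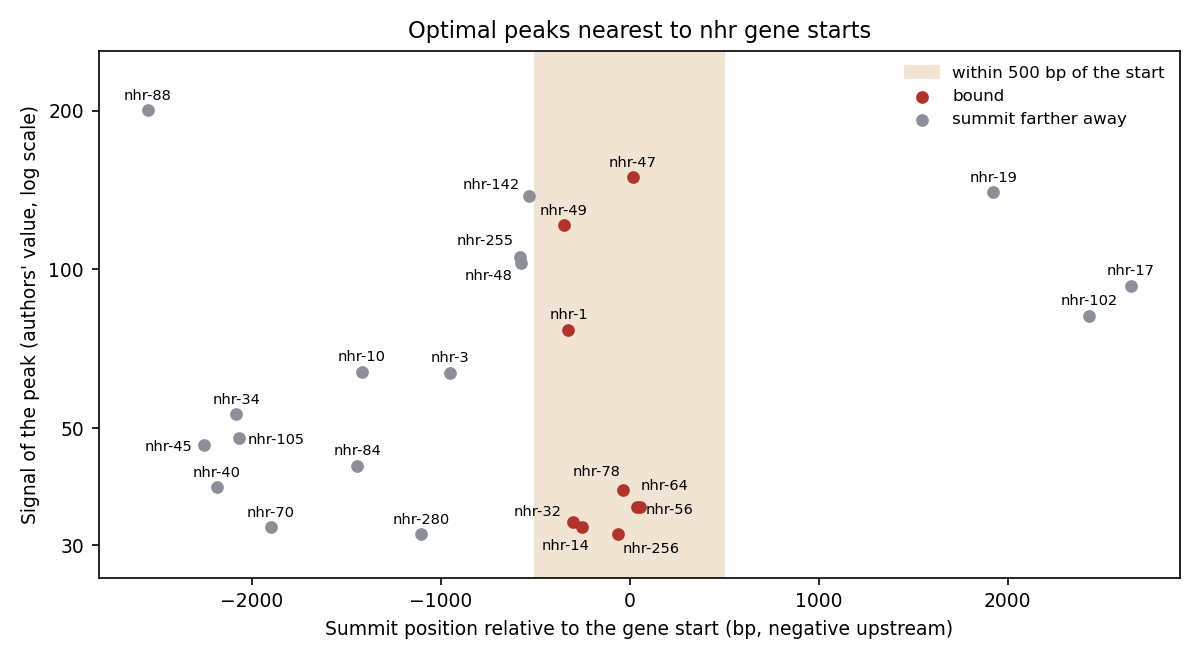
Signal of the nearest optimal peak (log scale) against the position of its summit relative to the gene start in bp, negative upstream, for the bound nhr genes (red) and for unbound nhr genes with a summit within 3000 bp (grey). The shaded band is 500 bp either side of the start, and 6 of the 9 bound genes lie below a signal of 40.

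The lists by known role are short, and their counts are to be read beside the shares over all genes, 8.18% bound and 27.4% with a relaxed peak. Of 10 fat and nutrient receptors 2 were bound, nhr-49 and nhr-64, and 7 (70.0%) had a relaxed peak at the start, against 29.7% of all nhr genes. The others of the 7 were nhr-80 (signal 22.73), nhr-68 (20.97), a regulator of propionate breakdown, nhr-62 (19.59), which is needed for the longer life of animals on a restricted diet, nhr-13 (14.63) and nhr-114 (12.96). nhr-10, which acts with nhr-68, had no relaxed peak within 500 bp and an optimal summit 1419 bp upstream at rank 974, and nhr-66 and nhr-69 had no relaxed peak at the start. Of 4 known partners of NHR-49 (the Mediator subunit gene mdt-15, nhr-13, nhr-66 and nhr-80), 0 were bound and 2 had a relaxed peak. The nearest optimal summit to mdt-15 was 4632 bp upstream, with a signal of 37.18. The list is short and was chosen with results in view, so the count is a description.

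Of 11 conserved receptors 0 were bound, against 8.18% of all genes, and 2 (18.2%) had a relaxed peak at the start, against 27.4%. They were nhr-25, the moulting regulator related to insect FTZ-F1, with 20.12 at 9 bp upstream, and nhr-91, related to mammalian GCNF, with 11.39 at 468 bp inside. In replicate 1 alone nhr-25 ranked 2307, inside the strongest 2346, with a signal of 15.08, and in replicate 2 it ranked 16402 with a signal of 7.363. nhr-23, nhr-67 and nhr-85, regulators of moulting and larval development, nhr-41, nhr-6, nhr-8, nhr-48, nhr-111 and nhr-239 had no relaxed pooled peak within 500 bp. The strong peak of nhr-48 lay 574 bp upstream, so that nhr-48 is bound when the distance is 1000 bp or when any part of the peak counts. Of the 6 moulting and larval development receptors 0 were bound and 2 had a relaxed peak, again nhr-25 and nhr-91. Of 5 receptors with other names, daf-12, fax-1, odr-7, sex-1 and unc-55, 0 were bound and 0 had a relaxed peak at the start. Their nearest optimal summits lay 1765 bp downstream of the start of daf-12, the dauer and steroid hormone receptor gene (signal 63.02), 7948 bp from the start of sex-1, an X-linked gene that signals chromosome number (97.9), and farther away for the others.

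Words of 6 letters were searched on both strands in the 101 bases around each summit, 50 either side. GAGAGA was found at 5 of the 9 bound nhr genes (nhr-47, nhr-1, nhr-64, nhr-32 and nhr-256), against 30.3% of optimal summits and 2459 of 20459 relaxed summits; at nhr-47 the match lay outside the bases shown above. With 25 bases either side it was found at 2 of 9, against 17.3% of optimal summits, and with 100 at 6 of 9, against 45.4%. CACGTG was found at 1 (nhr-32), against 3.28% of optimal summits. AGGTCA, the recognition letters of many receptors, TAATTA, a common homeodomain core, and TGATAA were found at 0 of 9, against 2.17%, 1.02% and 1.88% of optimal summits. None of these matches is a site shown to be bound, and no match says only that the letters are not in the window.

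In the promoters, taken as 250 bases before to 50 after the start, GAGAGA was present at 5 of 9 bound nhr genes (55.6%), 27.4% of the unbound nhr genes on V, 34.4% of the unbound ones elsewhere, 30.2% of all bound genes and 21.8% of all genes. TGATAA was present at 0 of 9 bound nhr genes, 27.4% and 36.5% of the unbound ones on V and elsewhere, 20.1% of all bound genes and 30.2% of all genes. AGGTCA was present at 1 of 9 bound nhr genes (11.1%), 10.4% of the unbound ones on V, 11.5% of those elsewhere, 4.59% of all bound genes and 8.27% of all genes. TAATTA was present at 2 of 9 bound nhr genes (22.2%), against 15.8% of all bound genes and 15.5% of all genes, and CACGTG at 0 of 9, against 5.57% and 5.82%. TAATTA and CACGTG read the same on both strands, and no 2 of these 5 words contain one another. The median GC content of the promoter was 38.0% for bound nhr genes, 34.0% for unbound nhr genes on V, 35.3% for those elsewhere, 35.7% for all bound genes and 34.3% for all genes.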

How the data were processed

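Peak lists of ChIP-seq from 2 biological replicates were analysed on ce11. Per the deposited file descriptions, the authors made a relaxed list for each replicate against a control and one from both together, and derived an optimal list by the irreproducible discovery rate. Each peak carries the authors' signal value, used only within a list. Aligner, peak caller and threshold are not given in the sources used here, depth is unknown, and no p-values were computed. The ce10 lists were not used.

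The 269 nhr genes were selected by symbol from Ensembl release 115, and all were found in the RefSeq table, 234 with identical coordinates and 251 with an identical start; 7 of the starts differed by over 500 bp. The members and lists were chosen with earlier results of these data known. Leaving out a replicate meant taking from the remaining replicate as many of its strongest peaks as the list held, 2346 for the optimal and 20459 for the relaxed list. Named genes were those bound in the main setting or in an alternative of distance, start or replicate, the 10 strongest unbound and those on the lists; others with an optimal peak within 3000 bp or inside the gene were named after their values were seen. Alternatives changed distance, side, start, assignment, threshold, peak position and windows. Counting was tested on simulated data. Python 3.11.15, pandas 2.3.3, numpy 2.4.6 and matplotlib 3.10.9 were used. Protein domain letters were planned but not analysed here, because no protein table was at hand.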

Additional observations from a re-analysis of the deposited data

How the results depend on the processing

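The main counts of bound nhr genes were 9 in all, 3 on V and 6 elsewhere. A distance of 250 bp gave 5 in all (1.86%, against 5.33% of all genes), without nhr-1, nhr-14, nhr-32 and nhr-49. Of these, 3 were on V (1.8%) and 2 elsewhere (1.96%), so the difference between V and the rest was then absent. A distance of 1000 bp gave 13 (4.83%, against 10.3%). Upstream summits only gave 6 in all (2.23%, against 7.53%) and 1 on V. The stronger part of the optimal list, cut at its median signal, gave 3 in all (1.12%, against 4.7%), 1 on V and 2 elsewhere. Any annotated transcript start, the nearest start only and leaving out peaks near small RNA genes each gave 9 (3.35%). The shares of all genes were then 8.65%, 6.2% and 7.98%. Any part of the peak gave 12 (4.46%, against 8.87%). Leaving out each replicate gave 9 to 10 bound in all, 3 to 4 on V and 6 to 6 elsewhere. A relaxed peak was present at 76 nhr genes without replicate 2 (28.3%, against 26.8% of all genes). Without replicate 1 it was present at 78 (29.0%, against 27.1%), and with both at 80. Of the 76 and the 78, only 59 and 57 were among the 80. With RefSeq starts, an alternative chosen after seeing the data, 8 were bound (3 on V, 5 elsewhere), without nhr-1, and 80 had a relaxed peak. The share of all genes with RefSeq starts is not given here, so these counts have no background beside them. The relaxed count was 46 for upstream summits only (17.1%, against 19.9% of all genes). It was 43 in the stronger part of that list, a share below the 18.2% of all genes. In the main setting the nhr share lay above that of all genes, 29.7% against 27.4%. A neighbour distance of 20 kb gave 2 bound of 172, against 1 of 150, and the central 50% of the chromosome gave 4 of 109, against 2 of 72 for the narrower middle part. Over all positions 8.18% of all genes were bound. The cause was not tested beyond the construction of each alternative. No paired analysis was possible because the replicates form 1 group and no test was run. Depth is unknown, so signals near the limit of 30.91 cannot be given an error.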

Other observations

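The receptor genes of chromosome I with a relaxed peak at the start were 3 of 23, against 33.5% of the genes of that chromosome, and 2 of the 3 (nhr-49 and nhr-64) were also in the optimal list. On X, 9 of 23 (39.1%) had a relaxed peak, against 27.9% of its genes. In the unbound receptors of V with a relaxed peak, several transcript starts were annotated for 25 of 48 (52.1%), against 30.2% of the 116 receptors of V without one. Relaxed peaks in both replicates were present at 45 of 260 unbound nhr genes (17.3%), against 2395 of 18340 unbound protein-coding genes (13.1%). These values were chosen after the data were seen and carry no test.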
